A study of Mus musculus with 6 samples.

Results

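The 5 genes described here, Hmga1, Hmga2, Igf2bp1, Igf2bp2 and Igf2bp3, make up the HMGA and IGF2BP families, 2 groups of oncofetal genes. Genes of this kind are active in embryonic tissues, mostly silent in the adult and often active again in tumours. Igf2bp2, however, stays active in many adult tissues, and Hmga1 encodes proteins found in most proliferating cells. The 5 genes were taken by symbol from a count table of 24516 genes. All 5 passed the filter on low counts that left 13427 genes for testing. The set was chosen by earlier results of these same data, in which the rise of Hmga2 with siJunb was already known, so the members' own changes are given as a description and without p-values. Where a member is said to be called, this says only on which side of the threshold set for all genes its value lay, and nothing is read from it.

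HMGA proteins are small architectural chromatin proteins that bend AT-rich DNA through AT-hook motifs, and they help other factors assemble on promoters and enhancers. IGF2BP proteins bind messenger RNAs in the cytoplasm and govern their stability, transport and translation. Both families lie on the axis of LIN28 and let-7: the let-7 microRNAs, which accumulate as cells mature, repress these mRNAs through their 3′ UTRs, and LIN28 proteins block the maturation of let-7. Mouse embryonic fibroblasts come from a stage of life at which both families are active.

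Polyadenylated RNA was sequenced from 6 libraries of iMGT-Myh6-eGFP-MEF, a line of mouse embryonic fibroblasts that carries doxycycline-inducible Mef2c, Gata4 and Tbx5 (MGT), a trio of heart transcription factors that can push fibroblasts toward a cardiomyocyte state, and an eGFP reporter named for the cardiac myosin gene Myh6. Cells were transfected with siControl, with siJunb against the AP-1 transcription factor gene Junb, or with siH1f0 against the gene of the linker histone H1.0, and 1 ug/mL doxycycline was added on the following day. There were 2 libraries per group, labelled as biological replicates, and every group, controls included, had induced MGT, so no library shows the fibroblasts without it. Harvest was at day 1 of MGT expression according to the sample labels, but at day 3 and after sorting on GFP according to the text on the whole series. All libraries come from 1 line, and the p-values measure only the spread between these libraries. In bulk RNA, fewer cells of a type and less RNA per cell cannot be told apart.

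Library totals ran from 48690447 to 85979630 counts. The siRNA targets were low in their own groups: Junb was at 39.1 and 35.7 counts per 1000000 scaled counts (CPM) in siControl and at 10.7 and 8.90 CPM in siJunb, and for H1f0 the siControl level of 798 and 743 CPM compared with 51.6 and 54.4 CPM in siH1f0. H1f0 was also lower in siJunb, at 666 and 651 CPM (log2 change -0.23 ± 0.05 SE, edgeR quasi-likelihood test with Benjamini-Hochberg adjustment, adjusted p = 0.021), a call lost without either siJunb or either siH1f0 library and with only the 4 libraries compared (adjusted p of up to 0.198). The markers of fibroblasts, the labelled cell type, summed to between 4644 and 4975 CPM in every library. Most of this came from Vim (2541 to 2897 CPM) and Col1a1 (1234 to 1406 CPM), whereas Col3a1 was at 1.23 to 1.69 CPM and Thy1 at 1 count in 1 library and 0 in the other 5. Cardiomyocyte markers summed to between 104 and 122 CPM, most of it from Tnnt2 (94.2 to 108 CPM). Myh6 was at 6.28 to 10.9 CPM and Myh7 at 1.36 to 3.72 CPM. Actn2 and Ryr2 had at most 5 counts in a library, and Nkx2-5 had 0. Pluripotent markers summed to at most 0.0628 CPM, with Pou5f1 at 0 counts. The spread between replicates, as the SD of the log2 ratio over genes, was alike in siControl (0.312), siJunb (0.317) and siH1f0 (0.284). Measured against counting noise, which weighs abundant genes more, the siControl pair differed most: the chi-square divided by its degrees of freedom was 74.6 in siControl, 3.80 in siJunb and 3.85 in siH1f0. In addition, all 3 induced factors were lower in the first siControl library than in the second. Mef2c was at 354 against 709 CPM, Gata4 at 844 against 1411 CPM and Tbx5 at 1858 against 2554 CPM. In the siJunb and siH1f0 libraries Mef2c was at 714 to 793, Gata4 at 1343 to 1480 and Tbx5 at 2390 to 2620 CPM. Rn45s, the ribosomal RNA precursor, was at 18761 CPM in that first library and at 3041 to 6685 CPM in the other 5. It was among the genes summed in the chi-square, with 1631869 and 414063 counts in the siControl pair. A part of the 74.6 thus comes from this 1 gene. The part of these differences in the results was not tested. For many results that hinge on 1 library, the value or the loss of the call without it is given below. For the gene lists, what is given without a library is the median log2 change and not the number called.

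Of the let-7 family, 9 mature mouse microRNAs in RefSeq (GRCm38.p6) share the same seed, bases 2 to 8, printed in capitals. Of these, the following 3 are shown because the seed is the stretch that pairs with the member mRNAs.
mmu-let-7a-5p: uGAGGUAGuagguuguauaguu
mmu-let-7d-5p: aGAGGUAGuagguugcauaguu
mmu-let-7i-5p: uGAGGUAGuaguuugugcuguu

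All 5 member mRNAs held the match to this seed, CTACCTC, searched on the sense strand in the longest annotated protein-coding 3′ UTR (GENCODE M21, GRCm38). Hmga2 (chr10:120361275-120476469, minus strand) and Igf2bp1 (chr11:95957163-96005940, minus strand) had 4 matches each. Hmga1 (chr17:27556497-27563674, plus strand), Igf2bp2 (chr16:22059009-22163299, minus strand) and Igf2bp3 (chr6:49085223-49214957, minus strand) had 1 each. Of 12304 tested genes with an annotated 3′ UTR, 10.7% had at least 1 match and 0.0813% had at least 4. Below are all 4 Hmga2 matches and the first or only match of each other member, as 30 bases of the mRNA strand with the seed match in capitals. They are printed because they show what the 5 mRNAs have in common in sequence.
Hmga2 match 1, chr10:120364222-120364251, minus strand: ggggcgccgacattcaatttCTACCTCagc
Hmga2 match 2, chr10:120362985-120363014, minus strand: ataatccccactcctcaataCTACCTCtga
Hmga2 match 3, chr10:120362547-120362576, minus strand: acttcctgatttgcaaggaaCTACCTCcac
Hmga2 match 4, chr10:120361689-120361718, minus strand: tgtacaatcaaaacacactaCTACCTCtta
Hmga1 match, chr17:27563272-27563301, plus strand: tcttctcctctgttcacaaaCTACCTCtgg
Igf2bp1 match 1, chr11:95961776-95961805, minus strand: gcagtgctgtgcgaagtaaaCTACCTCaag
Igf2bp2 match, chr16:22059471-22059500, minus strand: gaaaaacacacaaataaaagCTACCTCagg
Igf2bp3 match, chr6:49086785-49086814, minus strand: aaacgtgcatttttactcaaCTACCTCagg

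In 1 of the 4 Hmga2 matches, 3 of the 4 Igf2bp1 matches and the single matches of Igf2bp2 and Igf2bp3, the seed match was followed by an A, the base that extends it to the stronger 8-base form. The Hmga1 match was followed by another base. A match is a description of the sequence and not a measurement of binding.

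Hmga2, the embryonic member of the HMGA family, had the largest change of the 5 genes. It was at 26.3 and 29.4 CPM in the siControl libraries, at 50.7 and 52.1 CPM in siJunb and at 22.1 and 22.4 CPM in siH1f0. The 3 groups did not overlap: both siJunb libraries were above every other library, and both siH1f0 libraries were below. Lack of overlap was common: it held for 58% of all tested genes in siJunb against siControl. In siH1f0 against siControl it held for 50.6%, and between the knockdowns for 71.7%. Hmga2 was 1.85-fold higher in siJunb than in siControl, a log2 change of 0.89 ± 0.07 (SE), and 3.81% of the tested genes had a larger change in either direction. In siH1f0 it was 0.801 times the siControl level (log2 change -0.32 ± 0.07), a size that 15.5% of tested genes exceeded. Between the knockdowns themselves, Hmga2 in siH1f0 was 0.433 times its level in siJunb (log2 change -1.21 ± 0.07).

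Hmga1, which encodes the HMGA proteins found in most proliferating cells, was at 9.17 and 10.0 CPM in siControl, at 12.6 and 10.9 CPM in siJunb and at 9.55 and 8.89 CPM in siH1f0. The siJunb libraries were above all others by a margin smaller than the gap between them, and the siControl and siH1f0 libraries overlapped. The log2 change was 0.29 ± 0.10 (SE) with siJunb and -0.055 ± 0.10 with siH1f0, and neither was called. Its counts were the lowest of the 5, at 519 to 798 per library, so that counting error alone reached 4.39% of a value. An annotated gene on the opposite strand, AI413582, overlaps Hmga1, and because the strand setting of the counting is not given in the sources used here, their reads may not have been told apart. AI413582 itself, looked at after its values were seen, was at 12.9 to 17.1 CPM over the 6 libraries and was called in none of the 3 comparisons. Its log2 change was 0.24 with siJunb, 0.021 with siH1f0 and -0.22 in siH1f0 against siJunb. Those of Hmga1 were 0.29, -0.055 and -0.35, and the part of shared reads in them was not tested.

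Igf2bp2, the IGF2BP that stays active in many adult tissues and is tied to metabolism, was by far the highest of the 5. It was at 260.0 and 279.0 CPM in siControl, at 326 and 320 CPM in siJunb and at 239.7 and 238.8 CPM in siH1f0. Its groups did not overlap either, which was common among all tested genes, as given above for Hmga2. They lay in the same order as those of Hmga2 but with smaller steps. The log2 change was 0.26 ± 0.05 (SE) with siJunb, or 1.20-fold, and -0.17 ± 0.05 with siH1f0. Counting error was as low as 0.665% for this gene.

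Igf2bp1, the embryonic IGF2BP also known as ZBP1, which carries beta-actin mRNA in migrating cells, was at 55.1 and 59.7 CPM in siControl, at 62.5 and 65.2 CPM in siJunb and at 56.2 and 54.1 CPM in siH1f0. Its siJunb libraries were above all others, and its siControl and siH1f0 libraries overlapped. The log2 change was 0.15 ± 0.06 (SE) with siJunb and -0.057 ± 0.06 with siH1f0. Igf2bp3, the other embryonic IGF2BP and a common tumour marker, was at 28.5 and 31.6 CPM in siControl, at 31.6 and 34.8 CPM in siJunb and at 29.9 and 29.0 CPM in siH1f0. Here siControl overlapped with both knockdowns, and the log2 change was 0.14 ± 0.07 with siJunb and -0.030 ± 0.07 with siH1f0. Malsu1, also looked at after its values were seen, overlaps Igf2bp3 on the opposite strand and was at 5.84 to 7.82 CPM, so the same limit on strand holds for Igf2bp3. The log2 change of Malsu1 was 0.24 with siJunb, -0.12 with siH1f0 and -0.36 in siH1f0 against siJunb, none of them called. For Igf2bp3 the last was -0.17, and the part of shared reads was not tested here either.

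**Figure D1:**
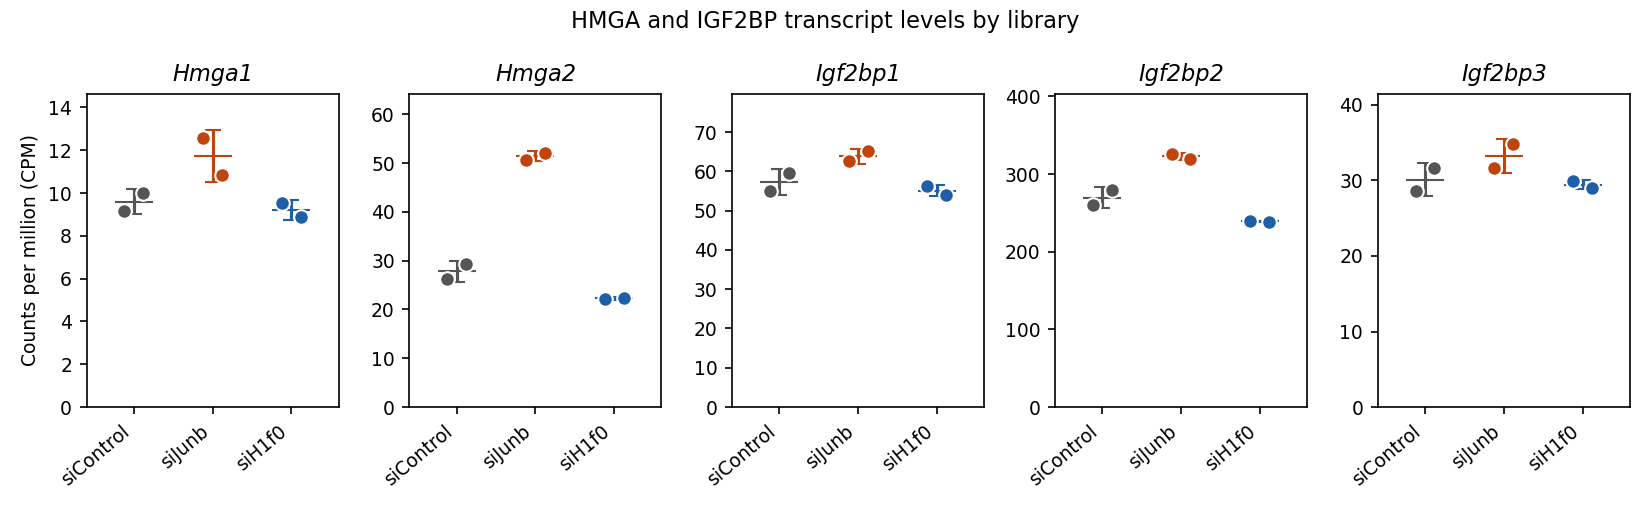
CPM of each of the 5 genes in the 6 libraries, by group, with points for libraries, a line for the mean of 2 and an error bar of 1 SD. The Hmga2 points of siJunb, at 50.7 and 52.1 CPM, sit apart from all others, while those of Igf2bp3 lie between 28.5 and 34.8 CPM in every group.

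In siJunb against siControl, all 5 genes had a log2 change above 0, and 2 of them, Hmga2 and Igf2bp2, were among the genes called as higher (adjusted p under 0.05 in edgeR's quasi-likelihood test). Over all genes tested in that comparison, 8.63% rose and 7.82% fell. Since the rise of Hmga2 led to the choice of the set, its call is no evidence of its own. The members' median log2 change was 0.261, beside 0.00243 for all tested genes. Over the 12 alternative analyses the log2 change of Hmga2 ranged from 0.81 to 0.96. Igf2bp2 lost its call without either siJunb library, where 1 of the 5 members was called, and ranged from 0.21 to 0.30 over the 6 fits that left out a library. Without the second siControl library all 5 members were called as higher, in a fit in which 22.1% of all genes tested were.

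In siH1f0 against siControl, all 5 genes had a log2 change below 0, and 1 of them, Hmga2, was called as lower, where 2.27% of all tested genes rose and 4.27% fell. The median log2 change of the members was -0.0572, beside 0.0034 for all tested genes. The sign of Hmga1 and Igf2bp3 turned in fits that left out 1 library, with ranges from -0.119 to 0.0008 and from -0.10 to 0.04. The call on Hmga2 was lost without either siJunb library, without either siH1f0 library and with only the 4 libraries compared, and its log2 change ranged from -0.40 to -0.24 over the fits that left out a library. Without the first or the second siControl library, Igf2bp2 was called too, as lower, in fits in which 12% and 17% of all genes tested were.

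The knockdowns were also set against each other, with the siJunb libraries that led to the choice of the set as 1 side, so these values too are a description. All 5 genes were lower in siH1f0 than in siJunb, with no overlap between the libraries of any gene. Of the 5, Hmga1 (log2 change -0.35 ± 0.10 SE), Hmga2 (-1.21 ± 0.07), Igf2bp1 (-0.21 ± 0.06) and Igf2bp2 (-0.43 ± 0.05) were called as lower, and Igf2bp3 (-0.17 ± 0.07) was not. Among all tested genes 12.2% rose and 13.8% fell, and 71.7% had groups that did not overlap. Over the 12 alternatives Hmga2 ranged from -1.23 to -1.16 and Igf2bp2 from -0.45 to -0.38. The calls on Hmga1 and Igf2bp1 were lost without either siJunb or either siH1f0 library, which left 2 of 5 called, and Igf2bp3 was called without the first or the second siControl library, which made all 5, in fits in which 25.0% and 24.4% of all genes tested were called as lower.

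**Figure D2:**
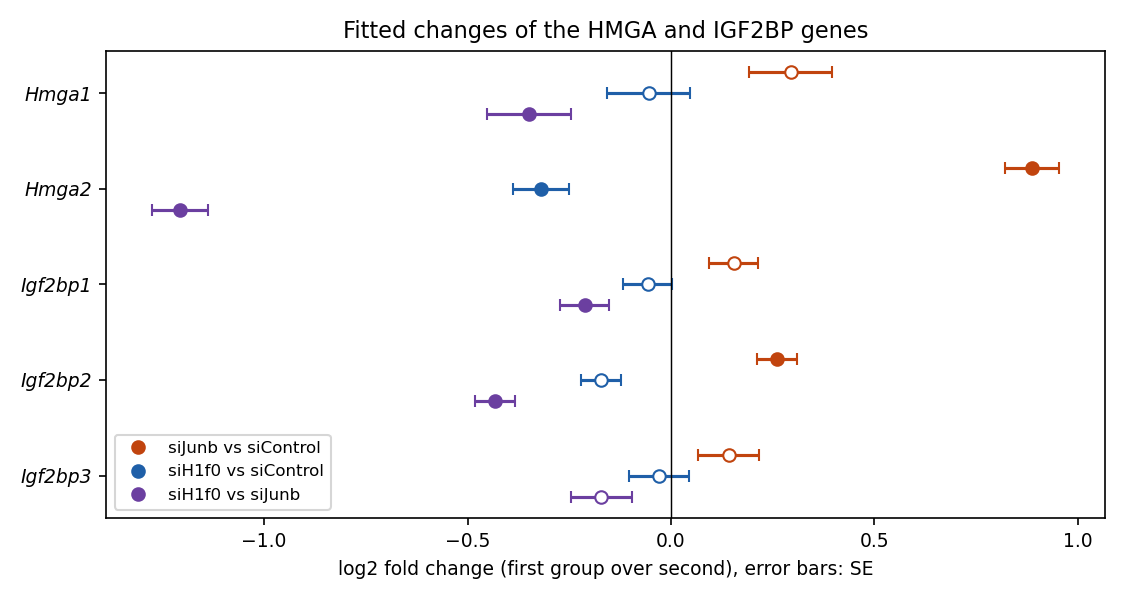
Log2 change with its standard error for the 5 genes in the 3 comparisons, with filled points for genes called at an adjusted p under 0.05 and open points for the rest. Hmga2 stands farthest from 0 in each comparison, at 0.89, -0.32 and -1.21, and the comparisons with siControl share the same 2 control libraries.

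Per length, which lets genes be compared with each other, Igf2bp2 was at 69.1 ± 3.44 CPM per kb (SD, n = 2) in siControl, higher than 91.59% of tested genes. The other 4 were lower in siControl. Igf2bp3 was at 6.92 ± 0.505, Igf2bp1 at 6.85 ± 0.390, Hmga2 at 6.66 ± 0.521 and Hmga1 at 4.69 ± 0.287 CPM per kb (SD, n = 2 each). Those values were below the median of all tested genes, 10.23 CPM per kb, and Igf2bp3, Igf2bp1 and Hmga2 did not differ from each other beyond their spread, while Hmga1 was below all 3. In siJunb, Hmga2 moved to the second place, at 12.3 ± 0.240 CPM per kb, with Igf2bp3 at 7.64 ± 0.516 and Igf2bp1 at 7.62 ± 0.224. In siH1f0 the order from the top was Igf2bp2 at 61.4 ± 0.154, Igf2bp3 at 6.77 ± 0.144, Igf2bp1 at 6.58 ± 0.181, Hmga2 at 5.33 ± 0.0625 and Hmga1 at 4.51 ± 0.230 CPM per kb.

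The make-up of the HMGA family moved with the knockdowns. Hmga2 gave 58.4% and 59.0% of the family's CPM per kb in siControl, 66.4% and 70.2% in siJunb and 53.1% and 55.3% in siH1f0, with no overlap between groups. The summed level of both HMGA genes was 10.8 and 11.9 CPM per kb in siControl, 18.3 and 17.8 in siJunb and 9.95 and 9.72 in siH1f0. The make-up of the IGF2BP family moved less. Igf2bp2 gave 83.6% and 83.3% of its level in siControl, 85.0% and 83.9% in siJunb and 81.9% and 82.4% in siH1f0. Igf2bp1 and Igf2bp3 each gave between 7.40% and 9.16% in every library.

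**Figure D3:**
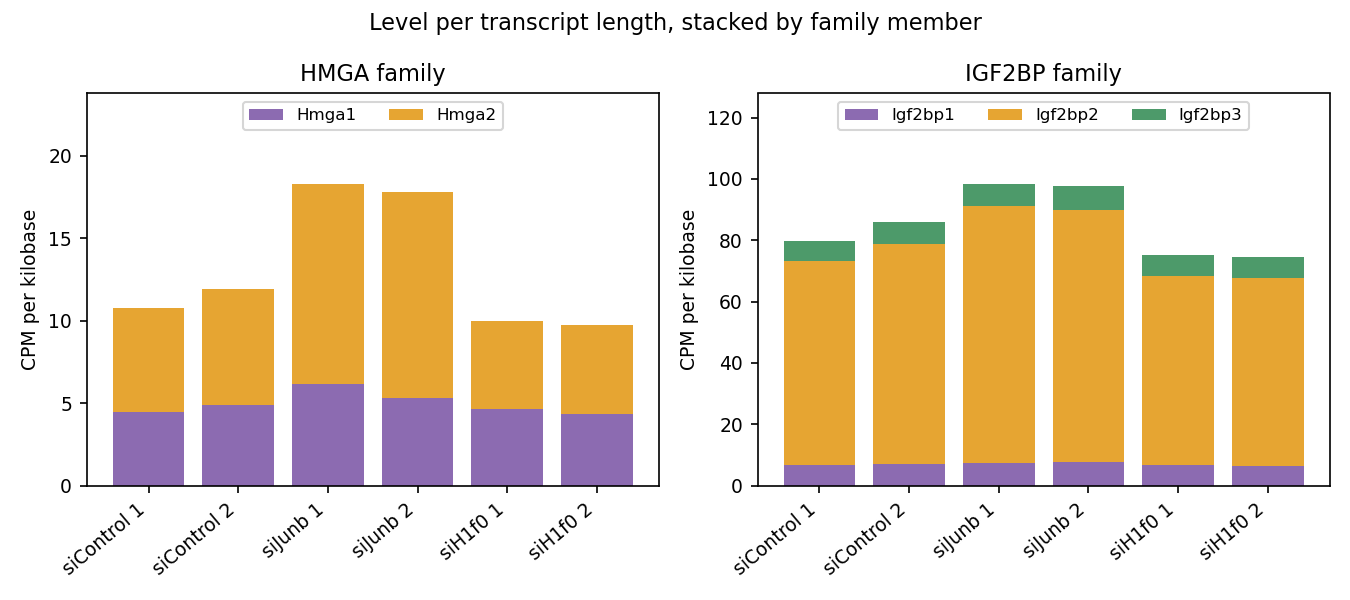
Stacked bars of CPM per kb in each library, with the HMGA genes on the left and the IGF2BP genes on the right. Of the bar heights, Hmga2 holds from 53.1% to 70.2% of the HMGA level and Igf2bp2 from 81.9% to 85.0% of the IGF2BP level.

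The LIN28 genes, which act upstream of let-7, were at or near the limit of detection. Lin28a had 0 counts in all 6 libraries, where 3 counts would be 0.0345 to 0.0628 CPM. Lin28b, its paralog, had 4 to 18 counts per library, at 0.207 and 0.243 CPM in siControl, 0.0959 and 0.209 in siJunb and 0.0665 and 0.239 in siH1f0, with overlapping groups. Of the 9 tested genes of the LIN28 and let-7 pathway, 0 were called in any of the 3 comparisons by edgeR or by DESeq2. At an unadjusted p under 0.05 edgeR gave 0 genes for either knockdown against siControl, and 4 higher and 2 lower in the direct comparison. Over all 13427 tested genes, 5163 had such a p in the direct comparison, 4263 with siJunb and 3060 with siH1f0. The highest 2 were Ago2, the slicer protein of the RNA-induced silencing complex, and Drosha, the nuclease that releases microRNA hairpins. Ago2 was at 129 and 232 CPM in the siControl libraries, a gap wider than any difference between the group means, and its log2 change was 0.40 ± 0.21 (SE) with siJunb and 0.05 ± 0.21 with siH1f0. Drosha changed by -0.05 ± 0.05 and 0.07 ± 0.05. Calls in this list appeared when a siControl library was left out. Without the first, the list's median log2 change was -0.0622 with siJunb and -0.0356 with siH1f0. Without the second it was 0.0297 and 0.0825. In the direct comparison 4 rose and 3 fell with only the 4 libraries compared, where 23.3% and 25.3% of all tested genes did. Scaling by total counts gave 4 rises there, with 16.5% of all tested genes rising. With no count filter 1 rose and 3 fell, beside 11.9% and 12.3% of all tested genes. That setting also gave 1 rise with siJunb, where 9.13% of all tested genes rose. Mature let-7 was not measured, since poly(A) libraries hold little of it, and the 11 rows for let-7 hairpins had at most 25 counts in a library.

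Of 21 tested genes listed as let-7 targets from textbook knowledge, which leaves out the 5 members, 6 rose and 1 fell with siJunb, and their median log2 change was 0.086. Over all tested genes 8.63% rose and 7.82% fell in that comparison. The rises with the smallest p were Ccnd1, Ccnd2 and Cdc34. Ccnd1, the D-type cyclin that opens the G1 phase, was at 9.61 and 8.46 CPM in siControl and at 19.1 and 19.4 CPM in siJunb (log2 change 1.09 ± 0.09 SE, edgeR adjusted p = 0.0002494). Ccnd2, its close relative, was at 234 and 277 CPM in siControl and at 367 and 366 CPM in siJunb (0.52 ± 0.07, edgeR adjusted p = 0.002936). Cdc34, a ubiquitin-conjugating enzyme of the cell cycle, rose by 0.45 ± 0.07 (edgeR adjusted p = 0.004692, and 0.0686 without the first siJunb library). The gene that fell was Nras (-0.19, edgeR adjusted p = 0.03791), named after its value was seen. Its call was lost without either siJunb or either siH1f0 library, with only the 4 libraries compared and with the replicate number as a block. Over the fits that left out a library, the log2 change of Nras ranged from -0.22 to -0.16. Myc, a target that the IGF2BP proteins also bind, was not called (0.03 ± 0.06, edgeR adjusted p = 0.7952). The number called changed when a library was left out, in the list and over all tested genes. The list's median log2 change was 0.0509 without the first siControl library and 0.154 without the second. It was 0.138 and 0.101 without the first and the second siJunb library, and 0.082 without either siH1f0 library.

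With siH1f0, 0 of these 21 rose and 3 fell, with a median of -0.0811, while DESeq2 also gave 0 and 3 and an unadjusted p under 0.05 in edgeR gave 3 higher and 6 lower. Over all 13427 tested genes 2.27% rose and 4.27% fell, and 3060 genes had an unadjusted p under 0.05 in edgeR. Myc was at 84.2 and 80.0 CPM in siControl and at 57.3 and 54.1 CPM in siH1f0 (log2 change -0.56 ± 0.06 SE, edgeR adjusted p = 0.001883), and this call held whichever library was left out. Thbs1, a matrix glycoprotein that restrains blood vessel growth, fell by 0.51 on the log2 scale (edgeR adjusted p = 0.005757, and 0.094 at most without 1 siH1f0 library). Ccnd1 was at 6.61 and 7.05 CPM in siH1f0 (-0.41 ± 0.09, edgeR adjusted p = 0.03955), a call lost without either siJunb or either siH1f0 library and with only the 4 libraries compared (adjusted p of up to 0.312). The number called in the list changed when a library was left out. Its median log2 change was 0.023 without the second siControl library and -0.105 without the first. It was -0.081 without either siJunb library, and -0.0929 and -0.0717 without the first and the second siH1f0 library.

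In siH1f0 against siJunb, 1 of the 21 rose and 8 fell, with a median of -0.0928, beside 12.2% and 13.8% of all tested genes. Ccnd1 fell by 1.49 on the log2 scale (edgeR adjusted p = 2.389e-05), Ccnd2 by 0.70 (edgeR adjusted p = 0.0003451) and Myc by 0.59 (edgeR adjusted p = 0.0004111), and all 3 calls held whichever library was left out. The gene that rose was again Nras, at 0.32 (edgeR adjusted p = 0.002245), named after its value was seen. The list's median was -0.0932 without the first siControl library and -0.0896 without the second. Of the 21, 14 held at least 1 seed match, and their median log2 change with siJunb was 0.0423, beside 0.044 for the 1307 genes with a match among all tested genes other than the members. Cdc34 and Nras had 1 each, and Ccnd1, Ccnd2, Myc and Thbs1 had 0 in the 3′ UTR searched, which says only that these letters are not in that stretch.

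Over all tested genes other than the members, the number of seed matches went along with small differences in the siJunb comparison. The median log2 change was 0.0055 for 10992 genes with 0 matches, 0.041 for 1144 genes with 1, 0.067 for 141 genes with 2 and 0.12 for 22 genes with 3 or more. In the same order, 8.72%, 11.8%, 16.3% and 13.6% of the genes rose, and 8.04%, 6.82%, 8.51% and 0.0% fell. With siH1f0 the medians were 0.0051, 0.022, 0.031 and 0.049, and in the direct comparison they were -0.0016, -0.0082, -0.055 and -0.024. The median 3′ UTR length grew in step with the number of matches, from 1071 to 2159, 3518 and 4451 bases, and the part of length in these values was not tested. Among the members the number of matches did not order the changes: Hmga2 and Igf2bp1, with 4 matches each, changed by 0.89 and 0.15 on the log2 scale with siJunb.

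**Figure D4:**
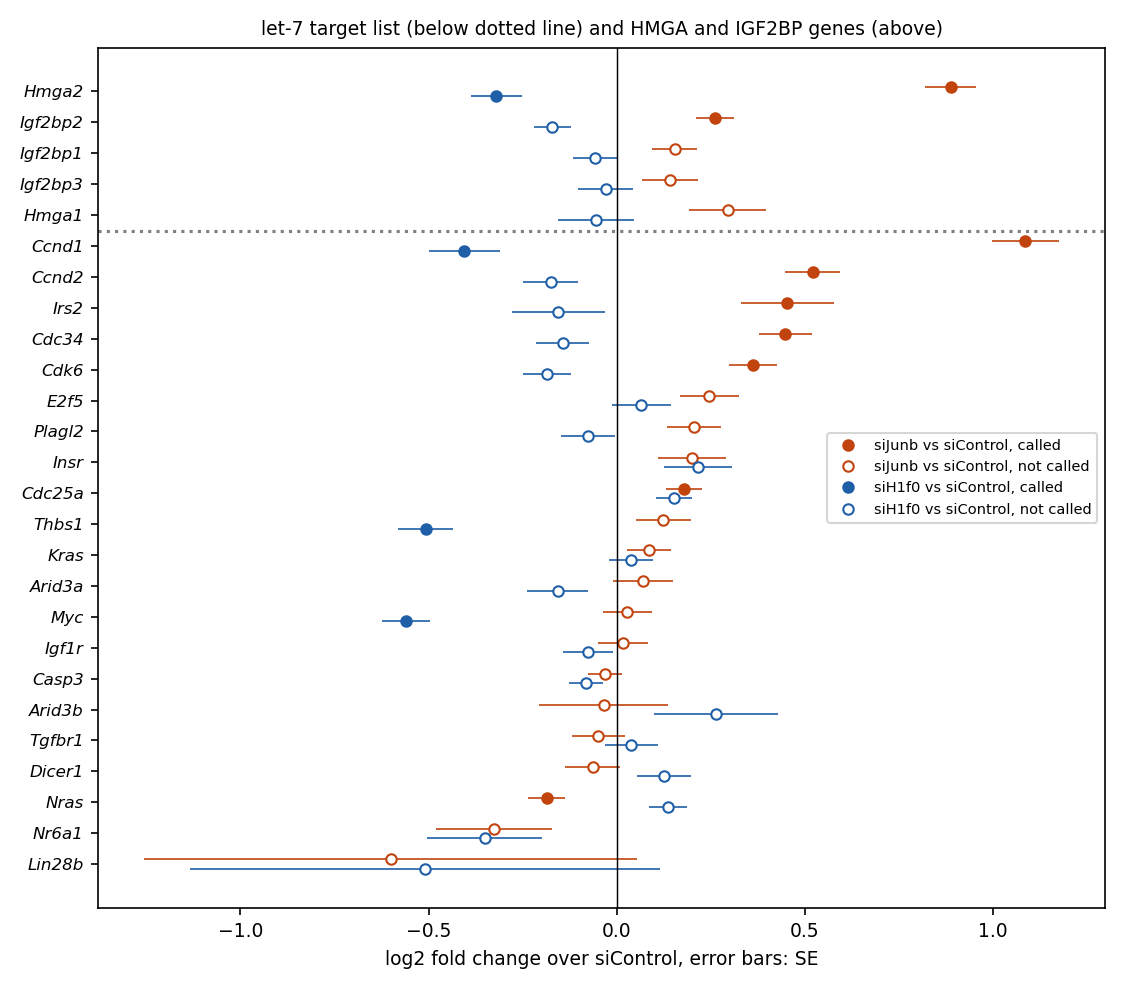
Log2 change with its standard error of the 5 members (above the dotted line) and the 21 tested let-7 target genes (below it), with siJunb and with siH1f0 against the same siControl libraries, with filled points for called genes and open points for the rest. Ccnd1 is the highest of the target genes with siJunb, at 1.09, and Myc the lowest of those called with siH1f0, at -0.56.

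Among 12 tested mRNAs listed as bound by IGF2BP proteins, 1 rose and 0 fell with siJunb, with a median log2 change of -0.0342. It was Pdpn, a mucin-type membrane glycoprotein (0.32 ± 0.05 SE, edgeR adjusted p = 0.006031, and 0.0998 at most without 1 siJunb library). With siH1f0, 1 rose and 3 fell, with a median of -0.0285. Myc, given above, and Cd44, the hyaluronan receptor, were among those that fell, the latter by 0.38 on the log2 scale (edgeR adjusted p = 0.004321, and 0.0864 at most without 1 siH1f0 library). The gene that rose was Lamb2, a laminin chain, at 0.30 (edgeR adjusted p = 0.005301, and 0.125 at most without 1 siH1f0 library), named after its value was seen. In the direct comparison 2 rose and 4 fell, with a median of 0.0601. Myc and Cd44 (-0.43, edgeR adjusted p = 0.0007179) were among the falls. Named after their values were seen, Pdpn also fell (-0.22), and Lamb2 (0.22) and Btrc (0.24), a subunit of a ubiquitin ligase, rose. The calls on Pdpn, Lamb2 and Btrc were lost without either siJunb or either siH1f0 library. That on Pdpn was also lost with scaling by total counts. Over the fits that left out a library, Pdpn ranged from -0.26 to -0.18. Lamb2 ranged from 0.20 to 0.24 and Btrc from 0.20 to 0.29. Over all tested genes 8.63% rose and 7.82% fell with siJunb, 2.27% and 4.27% with siH1f0, and 12.2% and 13.8% in the direct comparison. The number called in the list changed when a library was left out. Without the first siControl library its median log2 change was -0.0103 with siJunb, 0.0416 with siH1f0 and 0.0911 in the direct comparison. Without the second these medians were -0.0144, -0.118 and 0.0941. In the direct comparison the median was 0.116 and 0.0799 without the first and the second siJunb library. It was -0.00163 and 0.0178 without the first and the second siH1f0 library.

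Among 9 tested genes listed as HMGA targets, 0 rose and 1 fell with siJunb, with a median log2 change of -0.0741. It was the mitotic cyclin Ccnb2, which fell by 0.30 on the log2 scale (edgeR adjusted p = 0.01119, and 0.125 at most without 1 siJunb library). With siH1f0, 0 were called by edgeR or DESeq2, and an unadjusted p under 0.05 gave 2 higher and 1 lower in edgeR. The values of the 2 most abundant were -0.13 ± 0.06 for Cdkn2a, which encodes cell cycle inhibitors, and 0.22 ± 0.09 for Insr, the insulin receptor. In the direct comparison 2 rose and 0 fell, with a median of 0.0979: Ccnb2 (0.31, edgeR adjusted p = 0.005625, lost without the second siH1f0 or either siJunb library at up to 0.0765) and the S-phase cyclin Ccna2 (0.27, edgeR adjusted p = 0.007072, lost without either siJunb or either siH1f0 library at up to 0.0906). The shares of all tested genes called in each comparison are those given above. The number called in this list also changed when a siControl library was left out. Without the second siControl library its median log2 change was -0.13 with siJunb and -0.0428 with siH1f0. Without the first it was -0.00525 and 0.0841.

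Most other fetal growth and oncofetal genes were not detected well enough to test, and 6 of the 14 listed were tested. Igf2, the growth factor whose mRNA gave the IGF2BP family its name, had 6 to 20 counts per library, and H19, the imprinted RNA beside it, had 0 to 10. With siJunb 0 rose and 1 fell, the imprinted zinc finger gene Plagl1 (-0.40 ± 0.09 SE, edgeR adjusted p = 0.01888, and 0.149 at most without 1 siJunb library), and the median was -0.174. With siH1f0, 0 were called by edgeR or DESeq2, with 0 higher and 2 lower at an unadjusted p under 0.05 in edgeR. Plagl1 (-0.24 ± 0.09) and Plagl2 (-0.08 ± 0.07) were the most abundant of the list. In the direct comparison 0 rose and 1 fell, Plagl2 (-0.28 ± 0.07, edgeR adjusted p = 0.02032, and 0.145 at most without 1 library), also a listed let-7 target. For this list too, the shares of all tested genes called are those given above, and its number called changed without a siControl library. Without the first siControl library the list's median log2 change was -0.399 with siJunb, -0.185 with siH1f0 and 0.0911 in the direct comparison. Without the second it was -0.247, 0.0322 and 0.0941.

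Since Junb belongs to AP-1, the 4 members with a promoter entry in RefSeq (GRCm38.p6), which are Hmga1, Hmga2, Igf2bp2 and Igf2bp3, were searched from 250 bases before to 50 after the gene start on both strands. The AP-1 motif TGANTCA and the related motif TGACGTCA, neither of which contains the other, were found 0 times in their 5 windows. Of 12986 such windows of tested genes, 5.24% held the first and 3.06% the second. The absence of a match says only that these letters are not in the windows. The Hmga2 window is known for a long pyrimidine tract, and its 250 upstream bases are printed for that reason, with the longest run of C and T in capitals.
Hmga2 upstream, chr10:120476470-120476719, minus strand: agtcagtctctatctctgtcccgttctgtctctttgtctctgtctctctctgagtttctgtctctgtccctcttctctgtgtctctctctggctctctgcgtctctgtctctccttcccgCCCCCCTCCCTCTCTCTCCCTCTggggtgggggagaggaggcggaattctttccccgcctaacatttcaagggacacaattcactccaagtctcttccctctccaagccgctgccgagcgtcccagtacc

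C and T made up 70.8% of this stretch, a share that 0.462% of tested windows reached, and the run of 23 bases was reached by 2.01%. The Igf2bp3 stretch was alike in make-up, with 68.0% C and T (reached by 0.878% of windows) and a run of 35 bases (0.285%), whereas Igf2bp2 had 58.0% (11.1%). The log2 change with siJunb was 0.89 for Hmga2, 0.14 for Igf2bp3 and 0.26 for Igf2bp2, and a relation with the make-up of these stretches was not tested.

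The genes most like each member over the 6 libraries, by Pearson's r of log2 CPM among 9911 genes, are given as a description. The 6 libraries fall into 3 groups of 2, differ in depth and were scaled by 1 method, so r depends largely on the order of the groups. For Hmga2 they were Pi4k2b (0.9988), a lipid kinase, Cds2 (0.9981) and Mthfd1 (0.998), a folate enzyme. Pi4k2b was at 111 and 117 CPM in siControl, 160.4 and 159.8 in siJunb and 102 and 100.3 in siH1f0. For Igf2bp2 they were Galc (0.9993), a lysosomal galactosidase, Sgk3 (0.9982) and Ube2f (0.9979), and Galc was at 107 and 115, 131.5 and 130.1, and 100.3 and 98.8 CPM in the same order. For Igf2bp1 they included Siae (0.9903) and Gspt1 (0.9886), for Igf2bp3 they included Cul4a (0.9714) and Cd164 (0.9669), and for Hmga1 they were Yipf5 (0.9903), Pdgfrb (0.986) and Parp9 (0.9828).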

How the data were processed

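Groups and replicate numbers of the 6 libraries follow the sample labels. The deposited table holds whole-number read counts for each gene symbol, which the authors left without normalisation. Per the submitters' processing notes, HISAT2, Subread, featureCounts and the build mm10 were used (no versions). Annotation release, strand setting and the handling of multiply matching reads: not given in the sources used here.

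The counts went into edgeR 4.0.16 (R 4.3.3) with TMM scaling and the filterByExpr filter, which kept 13427 genes. The quasi-likelihood F test had only the group in its model, covered all 6 libraries and left 3 residual degrees of freedom. Calls needed an adjusted p (Benjamini-Hochberg, all genes tested) under 0.05. Exact permutation of 2 against 2 libraries has a smallest two-sided p of 0.333, so the calls borrow their estimate of spread from all genes. CPM are counts per 1000000 of the TMM-scaled library size, and CPM per kb divide by the deposited gene length. An SD is over 2 libraries, and an SE belongs to a fitted log2 change. Depth gave a counting error of at most 4.39% for a member. The alternatives were DESeq2 1.42.0, other scalings, no count filter (every gene with a count), a replicate block, only the 4 libraries compared and each library left out.

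The members and gene lists were chosen with earlier results of these data known, and the lists come from textbook knowledge. Named were the 5 members, Junb, H1f0, Lin28b, Igf2, H19, Myc and Ccnd1, then per list and comparison up to 3 called genes with the smallest p, or else the 2 with the highest CPM, and per member the 3 genes most like it, with a mean of at least 5 CPM and no Gm, Rik or bare Ensembl symbols. A few genes picked by this rule are left out of the text.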

Additional observations from a re-analysis of the deposited data

How the results depend on the processing

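The number of genes called was 2209 for siJunb, 879 for siH1f0 and 3484 for siH1f0 against siJunb. With only the 4 libraries compared it was 1094, 325 and 6416. Over the fits that left out 1 library it ran from 352 to 5521, from 116 to 4932 and from 1304 to 6435. With no count filter siH1f0 gave 1921 genes. Scaling by total counts alone turned the split of 1159 higher and 1050 lower for siJunb into 884 and 1369, and that of 1637 and 1847 in the direct comparison into 2222 and 1340. The listed gene that turned its sign with a call was Ago2 in siH1f0 against siControl, at -0.32 without the first siControl library, and it was at 0.53 without the second. The causes of these shifts were not tested.

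With the replicate number as a block, 1684, 550 and 2919 genes were called, and the calls on Hmga1 and Igf2bp1 in the direct comparison and on Ccnd1 in siH1f0 were lost, the first 2 as they were with total counts alone. The numbers do not show a pairing: deviations of same-numbered libraries correlated at 0.0477, -0.0412 and 0.0627. With no count filter, Hmga1 was called as higher in siJunb and Igf2bp2 as lower in siH1f0. Counting error was largest for Hmga1 among the members, and Lin28b, Igf2 and H19 had at most 20 counts in a library.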

Other observations

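Hmga2-ps1, an annotated processed copy of Hmga2 that was looked at after its values were seen, did not follow its parent gene. It was at 4.54 and 4.30 CPM in siControl, at 4.01 and 3.66 CPM in siJunb and at 5.33 and 5.43 CPM in siH1f0, which is the reverse of the order of Hmga2. Against siControl it was not called with siJunb (log2 change -0.20 ± 0.12 SE) or with siH1f0 (0.28 ± 0.11). It was higher in siH1f0 than in siJunb (0.49 ± 0.12, edgeR adjusted p = 0.0162), a call lost without either siJunb or either siH1f0 library, at up to 0.121. How reads that match both copies were counted is not given in the sources used here, so both values are uncertain by what they share.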
